A study of Mus musculus with 6 samples.

Results

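The genes of the mitotic spindle, the spindle checkpoint and cytokinesis were followed as a named set of 50, and their transcript levels were compared between thymocytes that lack Klf4 and control thymocytes. The members were taken by gene symbol from the annotation of the array. The rule names no measured value, but the set was proposed with earlier results of these data known. Of the 50 genes, 43 had a probe, with 64 probes in all among the 25697 of the array. No probe carried the symbol of Ccnb1, Aurkb, Mki67, Cenpf, Ckap2, Racgap1 or Smc4, and these 7 were not analysed here. For summaries each gene was represented by its brightest probe. By that probe 34 genes were tested, out of 10399 genes tested in all, and 9 were dim, meaning that their mean lay under percentile 40 of all probes. The 34 tested genes comprised 7 kinases, cyclins and their phosphatases, 8 genes of the checkpoint and of anaphase, 6 of the kinetochore and the chromosomal passenger complex, 6 motors and other spindle proteins, 3 of cytokinesis and 4 of chromosome structure.

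The samples were freshly isolated thymocytes of 6 mice, 1 array per mouse. All mice, aged 8 to 10 weeks, carried loxP-flanked Klf4 alleles (Klf4fl/fl) in the C57/BL6 strain. The 3 knockouts carried the CD4-Cre transgene (Klf4fl/fl-CD4-Cre+), and the 3 controls did not (Klf4fl/fl-CD4-Cre-). CD4-Cre becomes active at the double-positive (DP) stage, and the controls carry no Cre, so an effect of Cre itself cannot be told apart from that of the deletion. The cells were enriched for CD4 with either of a pair of commercial kits and comprise DP and CD4 single-positive (SP4) thymocytes. The kit used for each mouse and the sex of the mice are not given in the labels.

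KLF4, a DNA-binding factor of the zinc-finger class, is known to slow the cell cycle in several tissues. During mitosis cyclin-dependent kinase 1 with its cyclins, the Polo-like and the Aurora kinases drive cells into division, kinetochores couple chromosomes to spindle microtubules, and the checkpoint holds the anaphase-promoting complex in check until all chromosomes are attached. Most of these genes are transcribed in a burst late in the cell cycle, so that their transcripts mark cycling cells. In the thymus most division takes place in double-negative (DN) thymocytes and in large early DP cells, while most small DP and SP4 cells rest. In a bulk sample fewer cycling cells and less transcript per cycling cell cannot be told apart.

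The promoters of the set shared letters that the choice of members did not use. Late cell-cycle genes are known to carry a cell-cycle genes homology region (CHR, TTTGAA), bound by the DREAM complex in resting cells and by MYBL2 and FOXM1 complexes in dividing ones, and CCAAT boxes, bound by NF-Y. RefSeq windows of GRCm38.p6, from 250 bases before to 50 after each start, were at hand for 42 of the 50 genes, 45 windows in all, and were searched on both strands. TTTGAA was present in 32 of the 45 windows (71.1%) and in 5878 of all 32851 windows (17.9%). CCAAT was present in 35 (77.8%), against 37.4% of all windows. Both motifs stood in 29 windows (64.4%), against 6.95% of all, and no TTTGAA match overlapped a CCAAT match in the members' windows. Neither was found in 7 windows (15.6%), against 51.7% of all. CACCC, the core letters that KLF proteins bind, stood in 19 windows (42.2%), below the 57.5% of all windows. A match is a run of letters and not a shown binding site.

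Windows are shown for Spc25, Plk4, Nusap1 and Pttg1, which have the largest differences among the 34 tested members by their summary probes, and for the regulators Cdk1 and Cdc20. They were chosen after the values were seen. Capitals mark TTTGAA and CCAAT or their reverse complements, and each window runs 5′ to 3′ on the strand of its gene. Spc25 and Cdc20 each carried 1 TTTGAA and 2 CCAAT matches, and Cdk1 carried 2 and 3. Plk4, Nusap1 and Pttg1 had neither motif in the window shown.
Spc25, chr2:69206164-69206463, minus strand: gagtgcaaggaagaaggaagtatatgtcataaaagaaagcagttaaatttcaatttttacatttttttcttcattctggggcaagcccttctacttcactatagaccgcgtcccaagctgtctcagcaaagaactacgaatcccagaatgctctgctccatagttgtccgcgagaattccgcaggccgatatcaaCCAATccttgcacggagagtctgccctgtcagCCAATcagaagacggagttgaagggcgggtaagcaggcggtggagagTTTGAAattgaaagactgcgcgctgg
Cdk1, chr10:69352863-69353162, minus strand: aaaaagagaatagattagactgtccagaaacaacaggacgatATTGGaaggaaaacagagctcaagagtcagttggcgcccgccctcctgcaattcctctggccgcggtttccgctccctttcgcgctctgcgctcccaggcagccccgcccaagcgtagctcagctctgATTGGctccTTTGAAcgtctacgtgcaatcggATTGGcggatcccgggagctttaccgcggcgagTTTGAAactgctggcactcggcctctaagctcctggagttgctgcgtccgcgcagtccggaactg
Cdc20, chr4:118437294-118437593, minus strand: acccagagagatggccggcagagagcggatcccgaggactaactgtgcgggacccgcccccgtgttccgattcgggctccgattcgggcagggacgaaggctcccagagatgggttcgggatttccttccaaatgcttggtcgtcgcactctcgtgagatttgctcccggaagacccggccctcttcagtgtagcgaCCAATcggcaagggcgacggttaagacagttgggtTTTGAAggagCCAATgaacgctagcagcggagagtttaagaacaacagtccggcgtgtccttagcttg
Plk4, chr3:40799701-40800000, plus strand: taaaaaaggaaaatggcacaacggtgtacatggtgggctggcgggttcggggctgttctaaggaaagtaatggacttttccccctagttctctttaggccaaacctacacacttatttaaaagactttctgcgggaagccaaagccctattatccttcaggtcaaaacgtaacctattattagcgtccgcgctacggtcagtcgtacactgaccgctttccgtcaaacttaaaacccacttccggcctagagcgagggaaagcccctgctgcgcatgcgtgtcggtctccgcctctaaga
Nusap1, chr2:119618048-119618347, plus strand: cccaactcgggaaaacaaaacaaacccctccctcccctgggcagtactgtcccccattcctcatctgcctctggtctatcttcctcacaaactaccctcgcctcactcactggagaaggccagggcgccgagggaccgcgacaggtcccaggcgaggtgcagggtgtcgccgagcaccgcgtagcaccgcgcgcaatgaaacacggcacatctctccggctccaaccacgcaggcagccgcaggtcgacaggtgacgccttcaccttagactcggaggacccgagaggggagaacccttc
Pttg1, chr11:43425932-43426231, minus strand: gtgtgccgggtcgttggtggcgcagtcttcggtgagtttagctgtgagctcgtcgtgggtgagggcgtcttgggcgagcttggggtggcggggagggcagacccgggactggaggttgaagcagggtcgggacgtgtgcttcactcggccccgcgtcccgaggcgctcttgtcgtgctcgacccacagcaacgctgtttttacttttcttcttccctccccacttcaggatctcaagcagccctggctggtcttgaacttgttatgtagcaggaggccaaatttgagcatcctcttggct

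Values are scores in z units. The authors standardised each array to a mean of 0 and a standard deviation of 1 over its probes, and the arrays were then quantile normalised. Whether intensities or their logarithms were standardised is not given in the sources used here, so no fold change is stated. The scores ran from about -1.03 to 5.02. Klf4 checked the labels. On probe ILMN_1241903 it stood at 0.05, 0.109 and -0.145 in controls 1 to 3 and at -0.555, -0.758 and -0.696 in knockouts 1 to 3 (limma, adjusted p = 0.00265). A second probe was also lower (adjusted p = 0.046), and the remaining one, ILMN_2999439, differed by 0.037 (adjusted p = 0.944). Where these probes lie relative to the deleted part is not known here. Control 3 stood apart in sex-linked genes, with Xist at 2.116 against -0.558 to -0.404 in the other 5 mice and Eif2s3y at -0.834 against 1.533 to 1.894. Its highest deposited score, 4.52, was below those of the other arrays. Results are therefore also given without control 3. As markers of the labelled cells, Cd4 averaged percentile 86.7 of the array in controls and 86.9 in knockouts, Cd8b1 percentile 99.9 in both, and Rag1 percentiles 98.8 and 98.6. The probe of Cd8a was dim, at percentile 10.9 in controls and 9.06 in knockouts.

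No mitotic gene passed the test between the genotypes. Differences, knockout minus control, were tested two-sided with limma on all 15418 probes that were not dim, with Benjamini-Hochberg adjustment across these probes. Of these probes 2 passed, both of Klf4, which is 0.013%. Of the 34 mitotic genes 0 passed, and the lowest adjusted p was 0.439. At an unadjusted p under 0.05 there were 5 (4 lower and 1 higher), against 8.85% of all tested genes. Most differences by the brightest probe nonetheless lay on one side, with 25 of 34 below 0 (73.5%) against 51.9% of all tested genes. The median difference was -0.037 z units, against -0.003 over all tested genes. The lean was weaker over all 51 tested probes of the set, of which 29 lay below 0 and 22 above. With the dim genes included, 28 of 43 genes were lower (65.1%). The genotypes did not overlap in 5 of the 34 genes, all of them lower in the knockout, namely Spc25, Plk4, Bub3, Kif23 and Smc2. Of these, Smc2 lay just above the dim limit. Over all tested genes 7.78% were separated with the knockout lower and 6.39% with the knockout higher. The 95% intervals of the 34 differences reached from -0.285 to 0.286 at the extremes, with a median half-width of 0.123, against 0.113 over all tested genes.

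**Figure D1:**
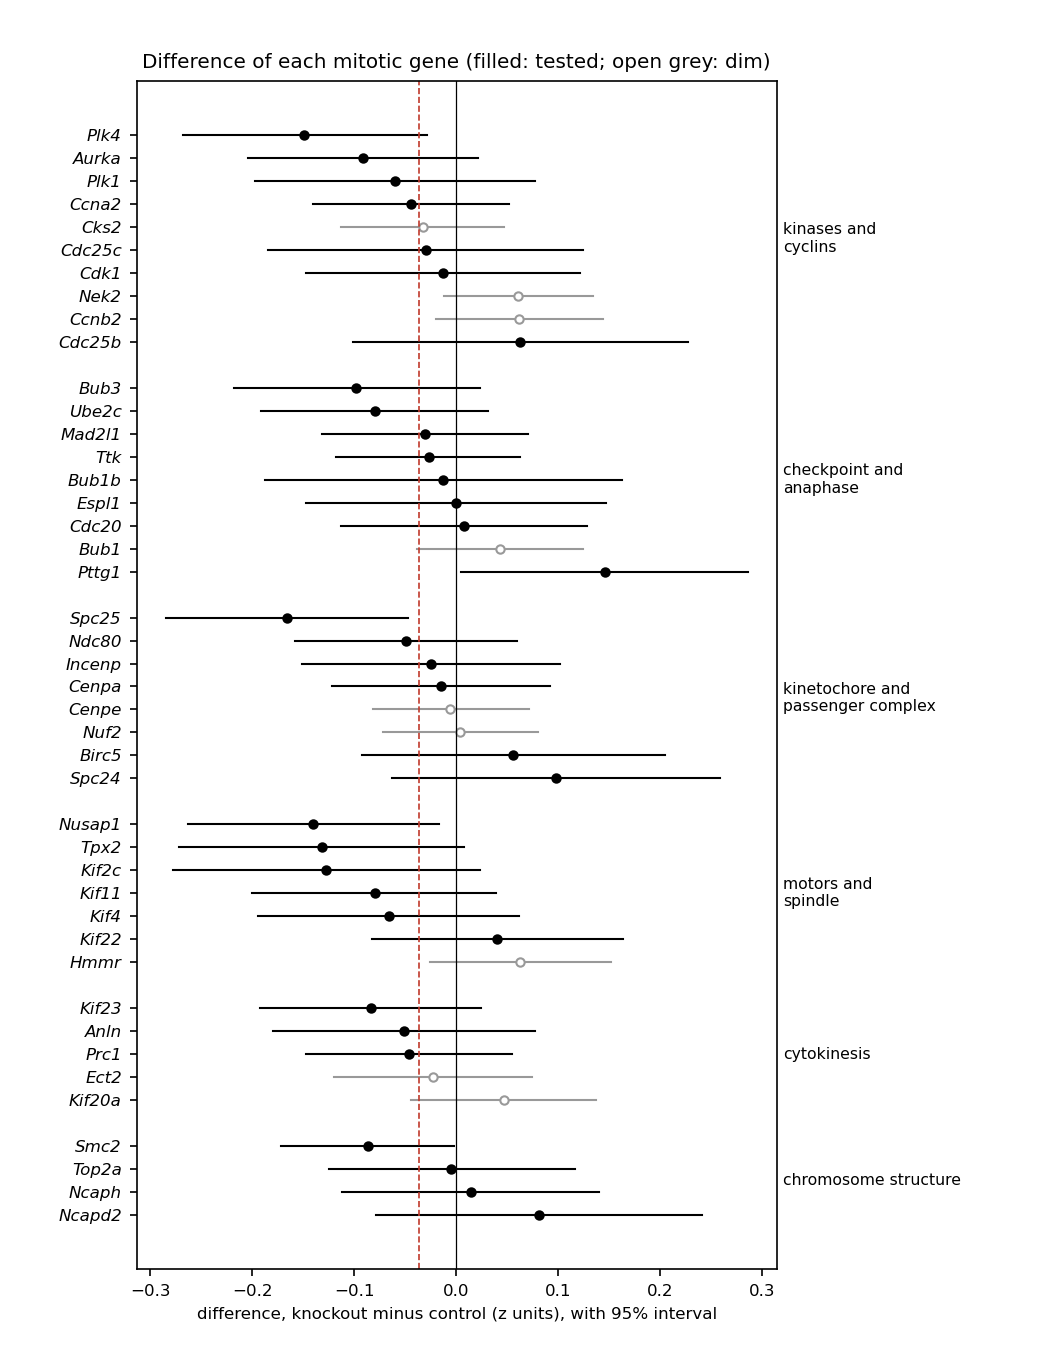
Difference of each of the 43 mitotic genes with a probe (x axis, knockout minus control in z units, bars are 95% intervals of limma), grouped by function. Filled points are tested genes, open grey points are dim ones, the dashed line is the median of the 34 tested genes (-0.037), and 5 of the 34 intervals of tested genes leave out 0, those of Spc25, Plk4, Nusap1, Smc2 and Pttg1.

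The mice of 1 genotype differed among themselves over the set. Controls 1 and 2 lay above the 6-mouse mean in 30 and 28 of the 34 genes, and control 3 in 11. Among the knockouts the number was 19 for knockout 1, 6 for knockout 2 and 8 for knockout 3. Over all tested genes these shares lay between 48.0% and 52.2%. Knockout 1 thus stood between the other knockouts and controls 1 and 2, and control 3 stood nearer to the knockouts. Per mouse, the median deviation from the mean was 0.05, 0.061 and -0.034 in controls 1 to 3 and 0.031, -0.049 and -0.037 in knockouts 1 to 3. In the deposited scores, without quantile normalisation, the counts above the mean were 30, 28 and 14 in controls and 19, 7 and 10 in knockouts. The shares over all tested genes were wider apart there, from 45.7% in knockout 2 to 56.9% in control 3. The size of the median difference varied with the mice included. Without control 3 the median was -0.068 with 30 of 34 genes lower, and without knockout 1 it was -0.076 with 29. Without control 2 it was -0.02 with 22 lower, and without knockout 2 it was -0.022 with 21. Without control 3 the medians of the 6 function groups ran from -0.145 (motors and spindle) to -0.021 (chromosome structure). In none of the 6 fits that left out 1 mouse did a mitotic gene pass (lowest adjusted p 0.221, for Spc25 without knockout 3).

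**Figure D2:**
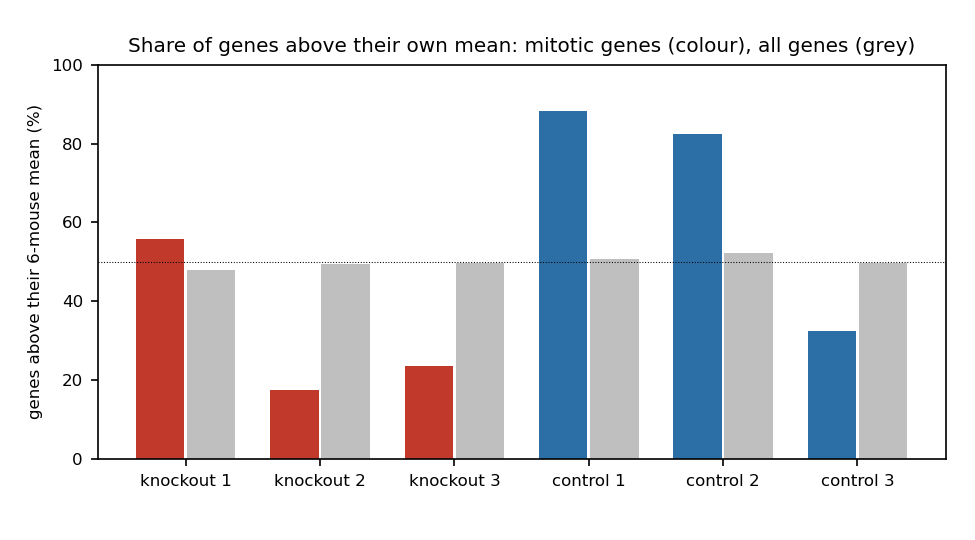
Share of genes (y axis, percent) that lie above their own mean over the 6 mice, for each mouse, in the 34 tested mitotic genes (coloured bars, red for knockout and blue for control) and in all 10399 tested genes (grey bars). Controls 1 and 2 stand at 88.2% and 82.4% and control 3 at 32.4%, while knockouts 1 to 3 stand at 55.9%, 17.6% and 23.5%, and the grey bars stay between 48.0% and 52.2%.

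**Figure D3:**
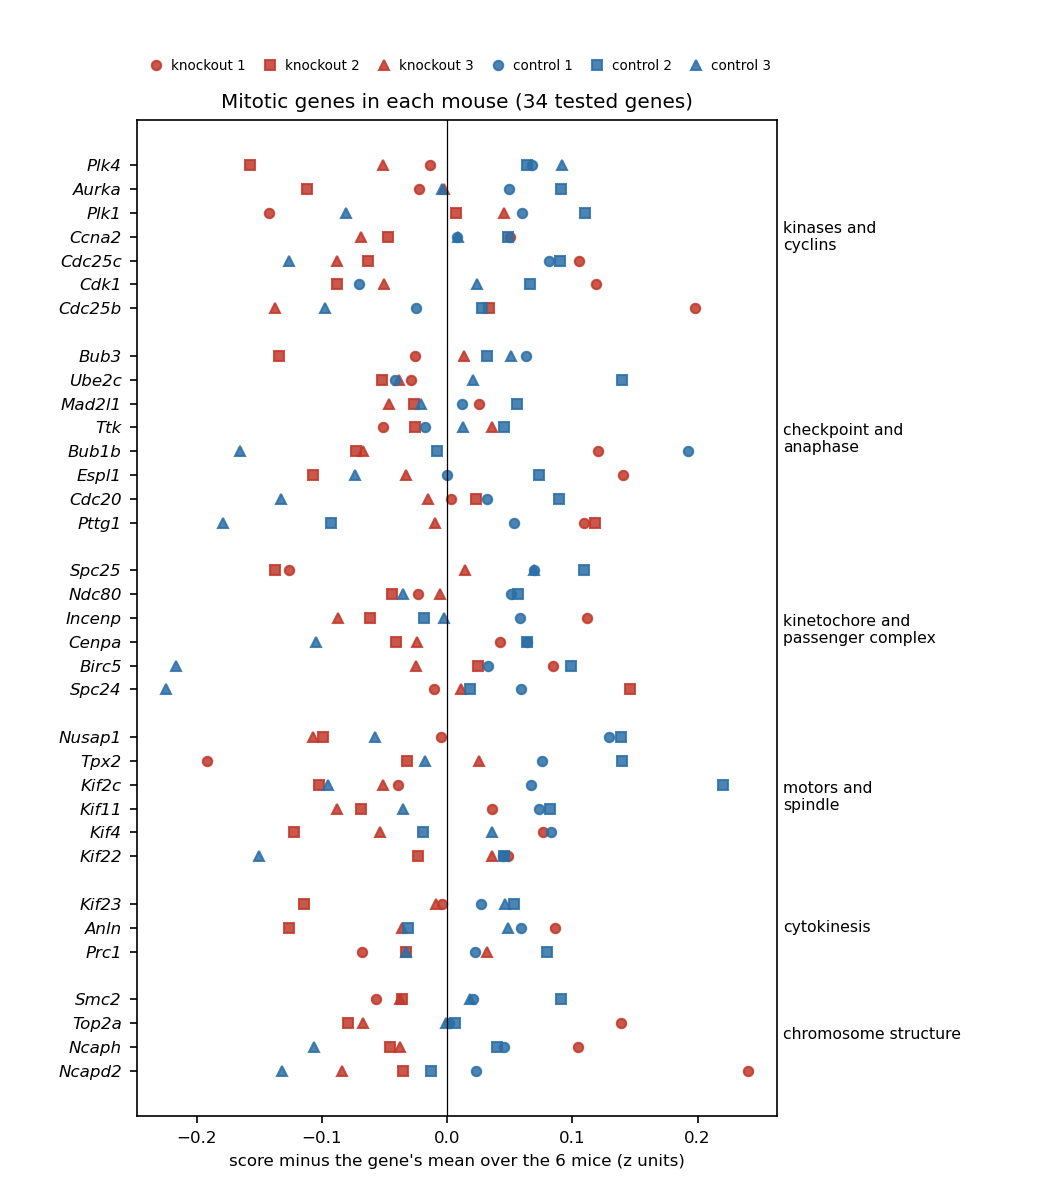
Score of each of the 34 tested mitotic genes in each mouse after subtracting the mean of the gene over the 6 mice (x axis, z units), with knockouts in red and controls in blue, and the symbol giving the replicate number. Points of control 1 and control 2 lie mostly right of 0 and those of knockouts 2 and 3 mostly left, while control 3 and knockout 1 are found on both sides.

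Among the kinases and cyclins 6 of 7 tested genes lay lower in the knockout, with a median of -0.044. Plk4, the kinase that starts centriole duplication, had the largest difference of these. It stood at 0.312, 0.308 and 0.336 in controls and at 0.231, 0.087 and 0.193 in knockouts, a mean of 0.319 ± 0.0151 against 0.17 ± 0.0747 (SD, n = 3 each). The genotypes did not overlap, knockout 2 was the lowest, and the difference was -0.149 (SE 0.055, limma adjusted p = 0.469). Aurka, the Aurora kinase of spindle poles, stood at 1.509, 1.551 and 1.456 in controls and 1.437, 1.348 and 1.457 in knockouts. Its genotypes met, since knockout 3 lay just above control 3, and the difference was -0.091 (SE 0.052, adjusted p = 0.647 by limma). Plk1, the Polo-like kinase of mitotic entry and spindle assembly, read 1.756, 1.806 and 1.615 in controls and 1.554, 1.703 and 1.741 in knockouts. Control 3 and knockout 1 were the low mice there, and the difference of -0.06 shrank to -0.004 without knockout 1 and grew to -0.115 without control 3. Cdk1, the kinase at the centre of mitotic entry, read 1.46, 1.596 and 1.554 in controls and 1.649, 1.442 and 1.48 in knockouts. The highest and the lowest value were both knockouts, and the difference was -0.013 (SE 0.062). Ccna2, the cyclin of S phase and early mitosis, and Cdc25c, a phosphatase that activates Cdk1, differed by -0.044 and -0.03. Cdc25b, a related phosphatase, differed by 0.063, and by -0.02 without knockout 1. The cyclin gene Ccnb2, the centrosomal kinase gene Nek2 and the Cdk1 subunit gene Cks2 had dim probes and differed by 0.062, 0.061 and -0.033 in a fit on all probes.

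The genes of the checkpoint and of anaphase were mixed, with 5 of 8 lower and a median of -0.02. Bub3, which recruits checkpoint proteins to unattached kinetochores, stood at 0.438, 0.407 and 0.426 in controls and 0.349, 0.241 and 0.388 in knockouts. The genotypes did not overlap and knockout 2 was the lowest, with a difference of -0.098 (SE 0.056, limma adjusted p = 0.648). Pttg1, which encodes securin, the inhibitor that holds separase until anaphase, had a higher mean in the knockout. It read 0.09, -0.056 and -0.142 in controls and 0.146, 0.155 and 0.027 in knockouts, with means of -0.036 ± 0.117 and 0.109 ± 0.0716 (SD, n = 3 each). Control 1 lay above knockout 3, so the genotypes overlapped, and the difference was 0.146 (SE 0.065, unadjusted p = 0.0433 and adjusted p = 0.553 by limma). It was 0.092 without control 3 and stayed above 0 in every fit that left out 1 mouse. Espl1, which encodes separase itself, had a difference of 0 to 3 decimals, with means of 0.672 in both genotypes. Cdc20, the activator of the anaphase-promoting complex, read 2.442, 2.499 and 2.277 in controls and 2.413, 2.433 and 2.395 in knockouts. Control 3 was the lowest and control 2 the highest of all, and the difference was 0.008 (SE 0.056), or -0.057 without control 3. Ube2c, the ubiquitin-conjugating enzyme of the same complex, differed by -0.08, with control 2 well above the other mice at -0.178. The checkpoint genes Mad2l1 and Bub1b and the kinase gene Ttk differed by -0.031, -0.013 and -0.027. Bub1 was dim and differed by 0.043.

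Of the 6 kinetochore and passenger complex genes 4 lay lower, with a median of -0.02. Spc25 and Spc24 encode partners of NDC80 in the complex that grips microtubules. Spc25 stood at 1.301, 1.341 and 1.301 in controls and at 1.105, 1.094 and 1.246 in knockouts, with means of 1.314 ± 0.023 and 1.148 ± 0.0843 (SD, n = 3 each). The genotypes did not overlap, and the difference was -0.166 (SE 0.055, unadjusted p = 0.01, adjusted p = 0.439 by limma). Spc24 read 0.823, 0.782 and 0.539 in controls and 0.753, 0.91 and 0.775 in knockouts, and control 3 alone was low. Its difference was 0.098 (SE 0.075, limma adjusted p = 0.731) and 0.01 without control 3. Ndc80 itself differed by -0.049. Birc5, which encodes survivin, a subunit of the passenger complex, read 2.634, 2.7 and 2.385 in controls and 2.686, 2.626 and 2.576 in knockouts. Here too control 3 was the low mouse, and the difference of 0.056 became -0.038 without it. Incenp, the scaffold of that complex, and Cenpa, the histone variant of centromeres, differed by -0.025 and -0.015, and Cenpa by 0.041 in the deposited scores. The dim genes Cenpe, a kinetochore motor, and Nuf2, the partner of NDC80, differed by -0.006 and 0.004.

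The motors and spindle genes had the lowest median of the 6 groups, -0.104, with 5 of 6 genes lower in the knockout. Nusap1, which bundles spindle microtubules near chromosomes, read 2.7, 2.71 and 2.513 in controls and 2.566, 2.472 and 2.464 in knockouts. Control 3 lay below knockout 1, so the genotypes overlapped, and the difference was -0.14 (SE 0.057, unadjusted p = 0.0284, adjusted p = 0.498 by limma). Tpx2, which activates Aurora A and nucleates microtubules, read 1.165, 1.229 and 1.072 in controls and 0.898, 1.057 and 1.115 in knockouts. Knockout 1 was the low mouse, and the difference of -0.132 (SE 0.065) became -0.069 without it. Kif2c, a kinesin that takes microtubules apart at kinetochores, differed by -0.128 (SE 0.07), with control 2 standing out at 1.529. Kif11, the motor that pushes spindle poles apart, and Kif4, which acts on chromosome arms and the central spindle, differed by -0.08 and -0.066. Kif22, a chromosome-bound kinesin, differed by 0.04, and by -0.025 without control 3, which was its lowest mouse. Hmmr, a spindle protein with a dim probe, differed by 0.063.

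In cytokinesis all 3 tested genes lay lower, with a median of -0.051. Kif23, the motor of the centralspindlin complex, stood at 1.609, 1.635 and 1.628 in controls and at 1.578, 1.468 and 1.573 in knockouts. The genotypes did not overlap, and the difference was -0.084 (SE 0.05, adjusted p = 0.666 by limma). Prc1, which crosslinks the microtubules of the central spindle, read 2.735, 2.793 and 2.68 in controls and 2.645, 2.68 and 2.745 in knockouts, so the genotypes overlapped (difference -0.046). Anln, the contractile ring protein anillin, differed by -0.051, and by -0.001 without knockout 2. The dim genes Ect2, which activates RhoA at the cell equator, and Kif20a, a motor of the central spindle, differed by -0.023 and 0.047.

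Of the 4 genes of chromosome structure 2 lay lower and 2 higher, with a median of 0.005. Smc2, a core subunit of condensin, stood at -0.498, -0.428 and -0.5 in controls and at -0.575, -0.555 and -0.556 in knockouts. The genotypes did not overlap, and the difference was -0.087 (SE 0.039, unadjusted p = 0.0458, adjusted p = 0.555 by limma). The mean of Smc2, -0.519, lay just above the dim limit of -0.602. Ncapd2, a regulatory subunit of condensin I, read 2.466, 2.43 and 2.311 in controls and 2.683, 2.408 and 2.359 in knockouts. Knockout 1 alone was high, and the difference of 0.081 became -0.019 without it. Top2a, the topoisomerase that untangles sister chromatids, read 2.728, 2.733 and 2.726 in controls and 2.866, 2.648 and 2.66 in knockouts. The controls lay within a narrow band inside the spread of the knockouts, and the difference was -0.005 (SE 0.056), or 0.019 in the deposited scores. Ncaph, another condensin I subunit, differed by 0.014.

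For 10 genes more than 1 probe was tested, which gives a second reading of the same transcript in the same 6 samples. Nusap1 had 3 tested probes, all lower in the knockout, at -0.14, -0.153 and -0.141. On ILMN_3156419 the controls stood at -0.339, -0.346 and -0.336 and the knockouts at -0.473, -0.5 and -0.469, with no overlap (adjusted p = 0.385 by limma). Both Spc25 probes were lower, at -0.166 and -0.09, and on the second the genotypes overlapped. All 4 Cdc20 probes, all 3 Birc5 probes and all 3 Ncapd2 probes had differences above 0, from 0.007 to 0.081. Control 3 was the lowest mouse on every Cdc20 and Birc5 probe. Without it all of these lay below 0, from -0.091 to -0.013 for Cdc20 and from -0.069 to -0.038 for Birc5. The Ncapd2 probes then stood at 0.036, -0.026 and 0.068. The 2 Spc24 probes had opposite signs, at 0.098 and -0.105, and Kif4 had 1 probe below 0 and 2 above. Signs also differed between the 2 probes of Anln, at -0.051 and 0.004, and of Cdc25c, at -0.03 and 0.003. Cdk1 gave the least uniform picture. Probe ILMN_2698252 read -0.588, -0.663 and -0.608 in controls and -0.442, -0.454 and -0.464 in knockouts. It did not overlap between genotypes and differed by 0.167 (SE 0.039, unadjusted p = 0.000851, adjusted p = 0.312 by limma). The control mean of this probe, -0.62, lay under the dim limit of -0.602, and its knockout mean was -0.453. It thus passed the filter only through the knockouts, and no weight is put on its separation. Over all tested genes 6.39% were separated with the knockout higher. The probe used in the summaries and the remaining one differed by -0.013 and 0.003. What each probe covers of its transcript is not known here.

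**Figure D4:**
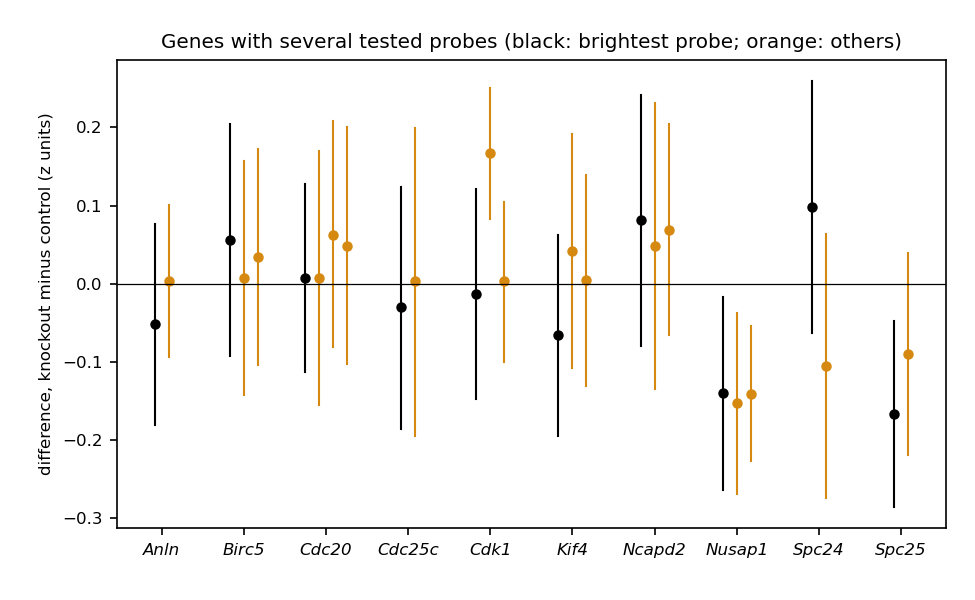
Difference between the genotypes (y axis, knockout minus control in z units, bars are 95% intervals) on every tested probe of the 10 mitotic genes with more than 1 tested probe. The 3 probes of Nusap1 lie between -0.153 and -0.14, while 1 of 3 Cdk1 probes stands at 0.167 and the others near 0. The Cdk1 probe at 0.167 has a control mean under the dim limit.

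The other genes of mitosis, 137 listed in 6 groups, were read in the same fit. Of them 113 were on the array and 99 were tested, and 0 passed. Differences lay below 0 in 58 and above 0 in 41 of the 99, with a median of -0.015, or -0.036 without control 3. The list of the anaphase-promoting complex and its regulators had 10 of 13 genes higher in the knockout and a median difference of 0.033. Its smallest p-values belonged to the subunit genes Anapc11, Cdc23 and Anapc4, at 0.101, 0.107 and 0.067, and control 3 lay above the 6-mouse mean in 2 of the 13 genes. Without control 3 the median was 0. Of 24 other kinetochore and checkpoint genes 16 were lower (median -0.029, and -0.053 without control 3). Cenpi, of the inner kinetochore, and Sgo1, which guards centromeric cohesion, differed by -0.16 and -0.164, while Cenpb, which binds centromeric DNA, differed by 0.238 (SE 0.06, adjusted p = 0.325 by limma). A second tested Sgo1 probe gave -0.025. Of 24 other genes of the spindle, centrosome and cytokinesis 17 were lower (median -0.023, and -0.057 without control 3). The largest difference of these was that of Kif18a, a kinesin that damps chromosome movement, at -0.214 (SE 0.066, limma adjusted p = 0.397). Cep55, of the midbody, and Knstrn, a spindle protein, differed by -0.155 and -0.152, and a second tested Knstrn probe by -0.129.

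Cohesin and the other condensin genes had 8 of 14 lower (median -0.035, and -0.034 without control 3). Esco2, which acetylates cohesin in S phase, differed by -0.17, Rad21, the cohesin subunit that separase cuts, by -0.114, and the cohesin gene Stag2 by -0.133 on its brightest probe and -0.231 on another. On that other Stag2 probe the controls read 0.819, 0.634 and 0.624 and the knockouts 0.417, 0.453 and 0.515, without overlap (adjusted p = 0.359 by limma). Among 13 genes of mitotic entry and exit control 7 were lower (median -0.017, and -0.052 without control 3). The mitotic kinase gene Pbk differed by -0.14, and Arpp19 and Ensa, whose products restrain the phosphatase PP2A in mitosis, by -0.132 and -0.106. On a second tested Ensa probe the genotypes overlapped and the difference was -0.028. In the group of DREAM, MuvB and FOXM1, the complexes known to bind the CHR, 7 of 11 were lower (median -0.041, and -0.004 without control 3). Rbl2, which encodes the pocket protein p130 of DREAM, read -0.144, -0.127 and -0.396 in controls and 0.235, 0.052 and 0.265 in knockouts. Its genotypes did not overlap, and the difference was 0.406 (SE 0.077, adjusted p = 0.217 by limma), while its other tested probe overlapped and gave 0.038. Lin54, the DNA-binding MuvB subunit, differed by -0.14 and Foxm1, a transcription factor of late cell-cycle genes, by 0.114 and by 0.038 on a second probe.

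**Figure D5:**
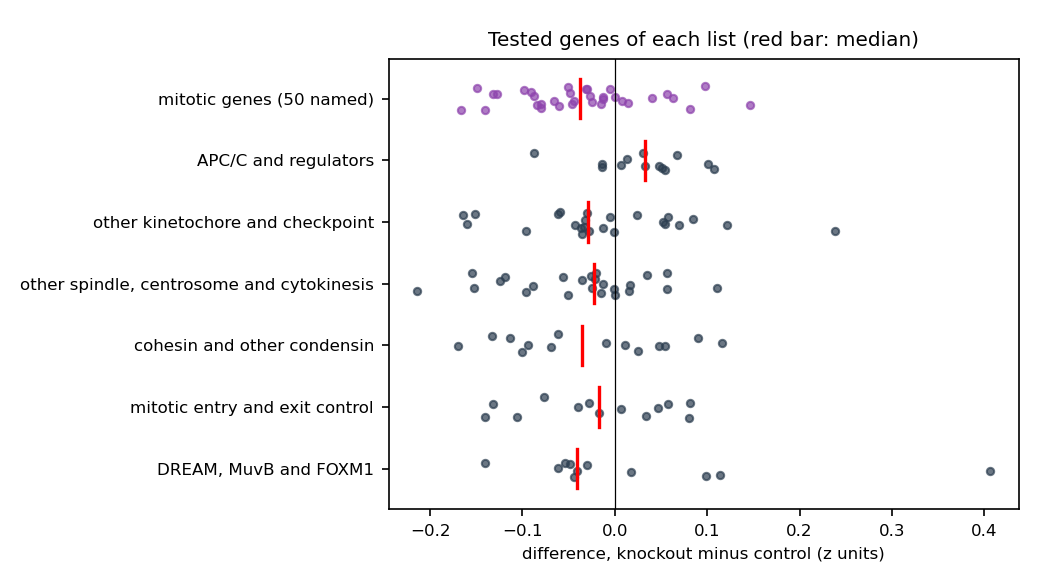
Differences between the genotypes (x axis, knockout minus control in z units) of the tested genes of the mitotic set and of 6 further lists of mitotic genes, 1 point per gene, with the median of each list as a red bar. Medians lie between -0.041 and -0.017 for the mitotic set and 5 of the lists, and at 0.033 for the anaphase-promoting complex and its regulators.

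The members with the CHR letters in their promoter window were set beside those without. Of the tested members 29 had a window. Among the 22 with TTTGAA 18 differences lay below 0, with a median of -0.05, and among the 7 without it 3 lay below 0, with a median of 0.014. These 7 were Birc5, Cdc25b, Mad2l1, Ncaph, Nusap1, Plk4 and Pttg1, so they included both Pttg1 at 0.146 and Plk4 at -0.149. The difference between these counts was not tested.

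Markers of other cells were read beside these values, because the cycling cells of a thymus are a minority. Of the DN thymocyte markers 7 of 8 were on the array, 5 lower and 2 higher in the knockout, none called. Their median score was -0.149, -0.018 and 0.028 in controls 1 to 3 and -0.121, -0.233 and -0.175 in knockouts 1 to 3. These medians mix genes of different level, so the deviation of each gene from its 6-mouse mean was also read. Its median over the DN markers was -0.035, 0.068 and -0.008 in controls 1 to 3. In knockouts 1 to 3 it was 0.042, -0.118 and -0.007. For the 34 mitotic genes it was 0.05, 0.061 and -0.034 in controls and 0.031, -0.049 and -0.037 in knockouts. Without control 3 the median difference of the DN markers went from -0.043 to -0.082. Of the DP markers 8 of 10 were lower, with medians of 1.547 to 1.958 in controls and 1.533 to 1.762 in knockouts. Control 3 was highest in 7 of the 10, and without it their median difference went from -0.033 to -0.007. The SP4 markers had 4 of 9 lower, with medians of 1.228 to 1.343 and 1.272 to 1.505. Macrophage and dendritic markers (6 of 8 lower) ran from 0.422 to 0.552 in controls and from 0.149 in knockout 2 to 0.692 in knockout 3, B cell markers (2 of 5 lower) from -0.492 to -0.443 and from -0.538 to -0.469, and CD8 T and NK markers (3 of 8 lower) from -0.757 to -0.703 and from -0.716 to -0.686. The 2 erythroid markers on the array were lower, and 4 of 8 markers of thymic epithelium and stroma were. All these counts include dim probes. Only 3 of the 8 CD8 T and NK markers, 3 of the 8 of epithelium and stroma and 0 of the 2 erythroid ones were above the dim limit. No marker of these lists was called. Lyz2, a myeloid gene, averaged percentile 92.6 in controls and 91.3 in knockouts, Cd74, of antigen-presenting cells, 93.4 and 93.6, and Cd79a, of B cells, 49.0 and 51.5. The part of any of these cells, of sex or of the isolation kit in the mitotic values was not tested.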

How the data were processed

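Total RNA of thymocytes from 6 mice was read on Illumina MouseRef-8 v2 arrays. The deposited values are scores: per the values, the authors brought the 25697 probes of every array to mean 0 and SD 1. The submitters' processing notes list GenomeStudio 2010.1 without its role, and background correction is not given in the sources used here. Column medians were -0.493, -0.489 and -0.49 in knockouts 1 to 3 and -0.488, -0.491 and -0.487 in controls 1 to 3. One z unit may stand for different changes at low and high signal, and the number of arrays limits the precision.

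Because quartiles differed by up to 6.93% of the interquartile range, arrays were quantile normalised. The 10279 probes with a mean under percentile 40 (-0.602 z units) were left out as dim. Just inside this limit lay Smc2 (-0.519) and just outside Hmmr (-0.634). The other 15418 were fitted with limma 3.58.1 in R 4.3.3 (lmFit, eBayes with trend), with Benjamini-Hochberg adjustment over all of them and a threshold of 0.05. Replicates are separate mice. Values of dim genes come from a fit on all probes. Gene symbols came from the platform annotation, with 23978 probes of 1 symbol and 1719 of none, and 23962 identifiers were found in RefSeq. Promoter sequences are from RefSeq (GRCm38.p6).

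Values per mouse are given for chosen regulators and for the 2 tested members of each function group with the smallest p, and up to 3 genes are named per related list. The members, the related lists, the marker lists and this rule were chosen with earlier results of these data known. The fit was tested on simulated data. Alternatives covered normalisation, the dim filter, the variance model, array weights, the replicate block, leaving out each mouse and the mean over probes.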

Additional observations from a re-analysis of the deposited data

How the results depend on the processing

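No mitotic gene passed in any alternative run. Of the 34 tested genes 21 kept the sign of their difference in every one other than the mean over probes (19 lower, and Pttg1 and Spc24 higher), and 13 did not. Over all probes the calls higher in the knockout went from 0 to 2 with the replicate block and 1 with robust variance, and ran from 0 to 1 when 1 mouse was left out. Calls lower in the knockout went from 2 to 1 without the trend and 0 under the stricter filter, and ran from 1 to 4 with 1 mouse left out. The median of the members ran from -0.076 to -0.02 and their count below 0 from 20 to 30 with 1 mouse left out. With array weights the median was -0.059 with 28 of 34 below 0, and with the mean over probes it was -0.026 with 25. Deposited scores gave -0.042, median centring -0.04 and the stricter filter -0.031, and the other alternatives left it at -0.037. Whether equal replicate numbers mark a pairing of mice is not given in the labels. Correlations of deviations from the group means were -0.0338, 0.167 and 0.0346 for the same-numbered pairs. For the other pairs they ran from -0.172 to 0.11. With 3 mice per group the deviations depend on each other, so these values cannot settle it. The block moved no member past the threshold.

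Signs turned for Espl1 (-0.019 in deposited scores, -0.017 with median centring, -0.04 with array weights), Top2a (0.019 and 0.021 in the first and second of these), Cenpa (0.041 and 0.043) and Cenpe (0.004 and 0.006). With array weights Cdc20 stood at -0.012 and Ncaph at -0.023. With the mean over probes Cdk1 stood at 0.052 and Spc24 at -0.003. With 1 mouse left out the sign turned for 16 genes. Their ranges were -0.099 to 0.081 for Bub1b, -0.07 to 0.054 for Espl1, -0.057 to 0.054 for Cdc20, -0.075 to 0.034 for Top2a, -0.036 to 0.04 for Ncaph, -0.019 to 0.143 for Ncapd2, -0.082 to 0.017 for Ect2 and -0.101 to 0.007 for Cdc25c. They were -0.076 to 0.027 for Cdk1, -0.02 to 0.147 for Cdc25b, -0.087 to 0.013 for Incenp, -0.071 to 0.013 for Cenpa, -0.017 to 0.001 for Cenpe, -0.017 to 0.023 for Nuf2, -0.038 to 0.12 for Birc5 and -0.025 to 0.073 for Kif22. The cause was not tested.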
